A study of Mus musculus and Homo sapiens with 32 samples.

Results

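The transcripts that carried an m6A-CT peak in mouse E14 embryonic stem cells were compared across 3 amounts of starting nuclei, 100K, 25K and 5K. A gene was counted at an amount when a peak of that amount's deposited list met, by at least 1 bp, an exonic stretch that the peak files of the C57BL/6 cells in the same series pair with its symbol. Those files cover both wild-type stem cells and stem cells with Mettl3 knocked out (KO). Of 11193 genes that could be named in this way, 2839 (25.4%) had an E14 peak at 1 amount or more. They were sorted into genes kept at all 3 amounts, genes found at 100K and lost at 1 or both lower amounts, and genes found at low input only. The length of their peaks and the caller's −log10 q in the 100K list were then set beside these groups.

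E14 is an established line of mouse embryonic stem cells, so the comparison describes a single line in culture. The experiment held 12 of the 32 libraries of the series, with 2 m6A-CT and 2 input libraries at each amount. Nuclei were isolated in Triton X-100, bound to concanavalin A beads and reverse transcribed, and the hybrid of RNA and cDNA was cut by the transposase pAG-Tn5. In m6A-CT the transposase was directed by an anti-m6A antibody from Synaptic Systems, while input libraries were tagmented with no antibody. All 12 libraries came from unmodified E14 cells, with no drug treatment or genetic change named. Each amount has 1 peak list, values per replicate were not analysed here, and whether the libraries of an amount are separate cultures is not given. Differences between amounts therefore carry no replicate error and no test, and the intervals below are Wilson 95% intervals that cover counting error alone.

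N6-methyladenosine (m6A) is a methyl mark on adenosines inside messenger and long noncoding RNAs. It is placed by a nuclear complex whose catalytic pair is Mettl3 and Mettl14, with Wtap, Virma, Zc3h13, Rbm15 and Cbll1 as further subunits. The mark is bound by readers such as the Ythdf and Ythdc proteins and can be removed by Alkbh5 and Fto. In embryonic stem cells many transcripts of pluripotency regulators carry it, and it is known to shorten the life of such transcripts.

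The 3 lists differed little in the depth that can be read from them. The fold and −log10 p that the caller gives at a summit fix the number of m6A-CT reads piled up there and the background expected from the caller. Of the peaks whose −log10 p was low enough to be solved, 99.9% at 100K, 99.7% at 25K and 99.8% at 5K gave a whole number of reads to within 0.01. The lowest background was 2.48 reads at 100K, 2.23 at 25K and 2.27 at 5K. If the caller derived this floor from the read total in the same way each time, which the sources used here do not give, the 100K data would hold 1.11 and 1.09 times the reads of the lower amounts. No listed peak had under 21 reads at its summit in any list. The median pile-up was 46 reads at 100K, 48 at 25K and 51 at 5K, against a median background of 5.58, 5.87 and 7.48 reads. The deposited lists start at −log10 q of 10, and the peak numbers the caller gave run up to 19856, 9495 and 13567, so the lists hold 40.6%, 41.3% and 34.2% of those numbers.

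A peak was found in 2117 genes at 100K nuclei (18.9% of the genes that could be named), in 1111 at 25K (9.93%) and in 1668 at 5K (14.9%). Of the 100K genes, 685 were kept at both lower amounts, a share of 32.4% (30.4 to 34.4%) and 6.12% of all nameable genes. A further 270 were found again at 25K and not at 5K, and 351 at 5K and not at 25K. The other 811 were seen at 100K alone, which is 38.3% (36.3 to 40.4%) of the 100K genes and 7.25% of the nameable ones. Low input alone gave 722 genes (6.45%), of which 566 had a peak at 5K alone, 90 at 25K alone and 66 at both. The 2 lower amounts thus differed in how far their genes lay inside the 100K set: 86.0% (83.8 to 87.9%) of the 25K genes also stood in the 100K list, and 62.1% (59.8 to 64.4%) of the 5K genes did. The 5K list named more genes than the 25K list, so the number of genes did not follow the number of nuclei.

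**Figure D1:**
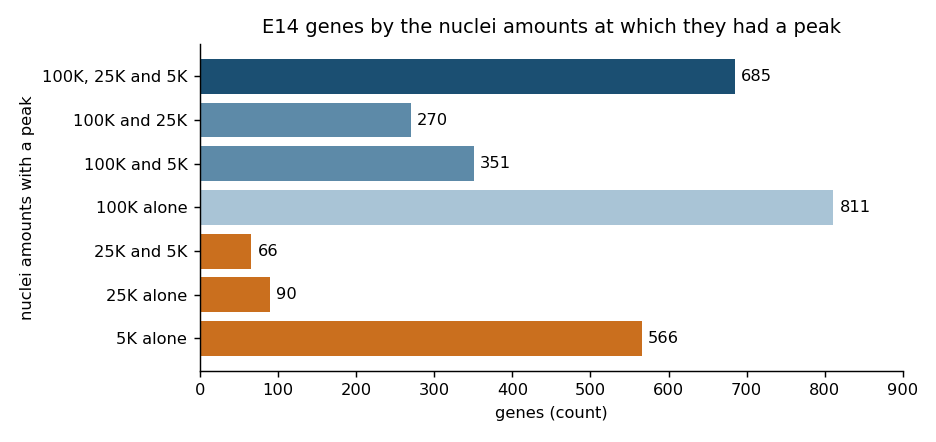
Number of E14 genes (horizontal axis) with a peak at each combination of nuclei amounts (vertical axis); dark and light blue bars are genes with a 100K peak and orange bars are genes seen at low input only. The longest bars are the 811 genes at 100K alone, the 685 genes at all 3 amounts and the 566 genes at 5K alone.

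Kept genes had the strongest 100K peaks. The median of a gene's highest −log10 q at 100K was 34.5 in the 685 kept genes (quartiles 19.5 and 68.6), 24.8 in those shared with 25K, 16.0 in those shared with 5K and 14.6 in those at 100K alone (quartiles 11.8 and 19.9). Over all 2117 genes with a 100K peak it was 19.1. The groups overlapped: 47 of the 811 genes at 100K alone (5.80%) reached the median of the kept genes, and 88 of the 685 kept genes (12.8%) lay below the median of the genes at 100K alone. The lists begin at a −log10 q of 10.0, the value of the weakest gene at 100K, so a gene just under that level at a lower amount counts as lost.

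Length separated the groups less. The median longest 100K peak was 573 bp in kept genes, 675 bp in genes shared with 25K alone, 379 bp in genes shared with 5K alone and 306 bp in genes at 100K alone. Of the genes at 100K alone, 209 (25.8%) had a peak at least as long as the kept median, and 227 kept genes (33.1%) had none as long as the median of the genes at 100K alone. Kept genes also held more peaks, with a median of 2 against 1, and 68.1% of the genes at 100K alone rested on 1 peak against 35.9% of the kept genes. The exonic stretch that could catch a peak was itself longer in kept genes, at a median of 5147 bp against 3826 bp in genes at 100K alone, 3342 bp at 5K alone and 1450 bp in genes with no E14 peak. The part of that stretch length in the pattern was not tested. The difference in peak length also turned with the threshold: with a −log10 q of at least 20 in every list, the median longest peak of kept genes was 0.727 times that of genes at 100K alone, against 1.87 times here. With at least 50 it was 0.183 times.

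**Figure D2:**
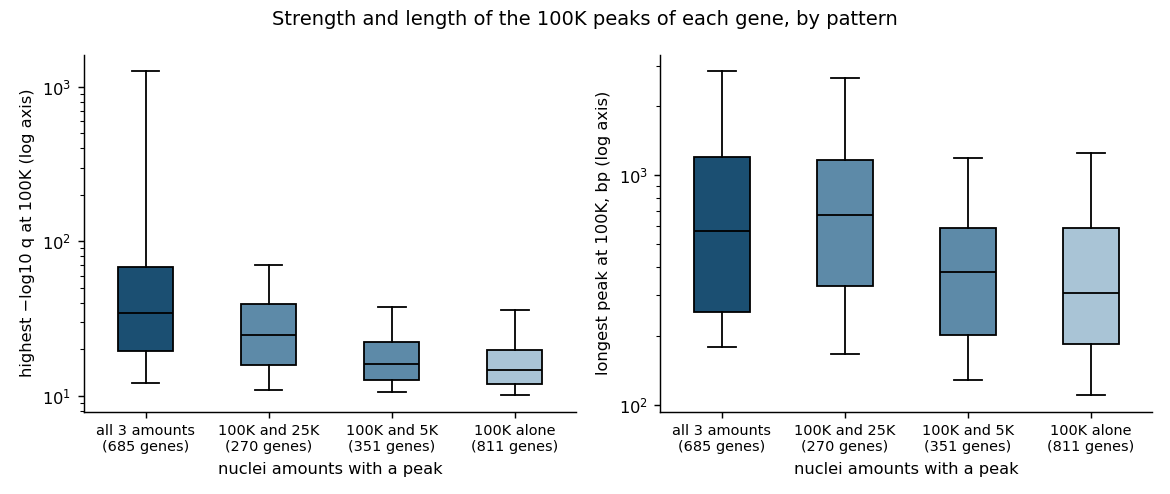
Highest −log10 q (left, log axis) and longest peak in bp (right, log axis) at 100K for the genes of each pattern; boxes span the quartiles with the median as a line, and whiskers run from the 5th to the 95th percentile. The median −log10 q is 34.5 in the genes at all 3 amounts and 14.6 in those at 100K alone, and the boxes for length overlap more than those for −log10 q.

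Ordered by the highest −log10 q at 100K and cut into 10 bins of 211 or 212 genes, the share kept at both lower amounts was 7.08% in the lowest bin and 87.7% in the highest. The step was steepest at the top, from 53.8% (47.1 to 60.4%) in bin 9 to 87.7% (82.6 to 91.5%) in bin 10. The rise was not even, with 20.8% (15.8 to 26.7%) in bin 2 and 10.4% (6.99 to 15.3%) in bin 3. With the 813 peaks left out whose ends were identical in all lists, the genes were cut into 10 bins again, and the top bin was kept in 79.0% (72.9 to 84.0%) of cases and the lowest in 6.34%. Counted by peaks rather than genes, 85.0% of the top bin was overlapped at both lower amounts, and 55.0% once those peaks were left out. The order of the lower amounts turned along the way. In the lowest bin 16.5% of genes were found at 25K and 24.5% at 5K, whereas in bin 9 77.8% were found at 25K and 60.8% at 5K. Along length, the bin with a longest peak of 157 to 186 bp was kept in 48.1% of cases, more than the 14.2% of the next bin and near the 41.5% of the bin with peaks of 968 to 1541 bp. The bin with the longest peaks was kept in 62.7%.

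**Figure D3:**
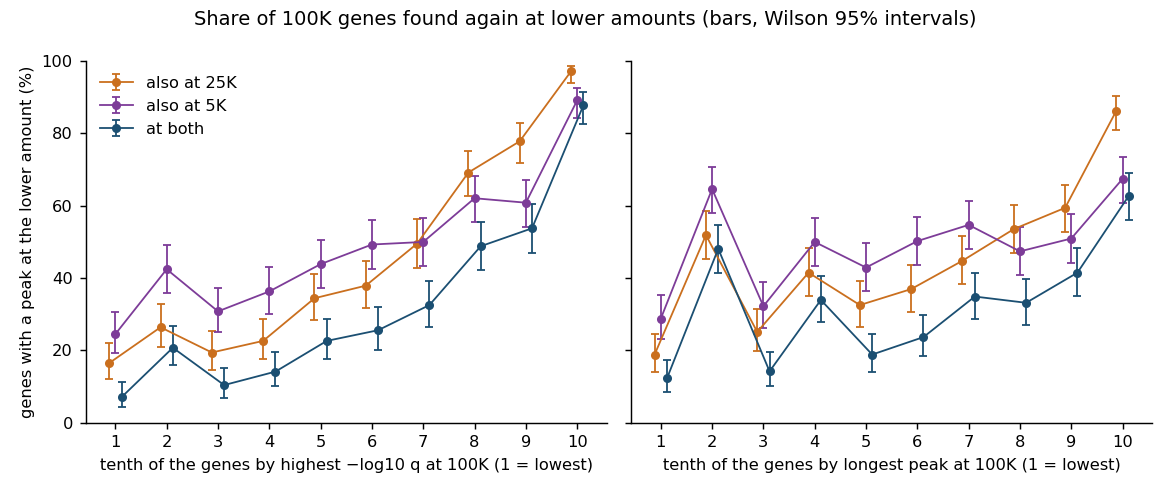
Share of 100K genes (vertical axis, %) with a peak at 25K (orange), at 5K (purple) and at both (blue), in 10 bins of the genes in order of highest −log10 q (left) and longest peak (right) at 100K; bars are Wilson 95% intervals. The share at both runs from 7.08% to 87.7% along −log10 q, while along length bin 2 stands out at 48.1%.

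Many peaks of the short class had the same ends at every amount. In all 3 lists 813 peaks had an identical start and end, of which 317 were 100 bp and 412 were 178 to 185 bp long. Among the other 100K peaks, the bins of 155 to 181 and 181 to 198 bp were found at both lower amounts in 14.1% and 15.1%, against 2.76% and 6.08% in the bins on either side. They were strong at 100K, with a median −log10 q of 102 against 16.8 for the other peaks. Only 92 of them (11.3%) lay on a named exonic stretch, against 72.0% of the other 100K peaks. Without them 598 genes stayed kept, 276 were shared with 25K, 355 with 5K and 816 were at 100K alone. The 87 genes that left the kept group had a median longest 100K peak of 183 bp and a median −log10 q of 355, against 658.5 bp and 31.9 in the 598 that stayed. In the C57BL/6 wild-type cells of the series, regions on those 87 genes had a median m6A-CT to input ratio of 3.83 against 6.20 on the 598, and a median MeTPeak fold of 7.75 (47 genes) against 17.6 (567 genes). What these same-ended peaks are was not tested.

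The strongest kept genes were mostly of this kind. Itsn1, which codes for an endocytic scaffold protein, had −log10 q of 47852 at 100K, 67030 at 25K and 72669 at 5K, all from a 182 bp peak at chr16:91729624-91729805 (mm9). Cadps2, which codes for a regulator of dense-core vesicle release, had 31275, 44463 and 120102 at chr6:23789341-23789522, again 182 bp at each amount. Ube3c, Ankrd60, Eif3f and Ppp1r13b likewise left the kept group without such peaks. For Itsn1 and Cadps2 −log10 q was highest at 5K and lowest at 100K. Arhgap21, which codes for a GTPase-activating protein, stayed kept without them, and its strongest peak, chr2:20821469-20821872 at 100K, had −log10 q of 95905, with 103080 at 25K and 77094 at 5K. That peak was chr2:20821439-20821872 at 25K and chr2:20821439-20821862 at 5K, so its ends were close though not identical. The overlapping pair Cmc4 and Mtcp1 stayed with 1 peak of 184, 184 and 183 bp, and Mroh6 with 1 of 185, 181 and 186 bp. Leaving out identical ends thus did not take out peaks whose ends differed by a few bp. Celsr1, a planar polarity cadherin, also stayed, with −log10 q of 4227 at 100K, 4706 at 25K and 1414 at 5K and a longest peak of 1866, 493 and 282 bp.

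Within kept genes, less of the transcript was covered as nuclei fell. The 685 genes held 2770 pairs of gene and peak at 100K, 1418 at 25K and 1361 at 5K, and the summed peak length was 1364056, 467145 and 371396 bp. More peaks at 100K than at 25K were counted in 372 genes and fewer in 47. More at 100K than at 5K were counted in 355 genes and fewer in 78. A gene was not always kept through the same stretch: 486 of the 685 (70.9%, 67.4 to 74.2%) had a 100K peak overlapped at both lower amounts. Of the 2770 pairs, 656 (23.7%) were overlapped at both and 1484 (53.6%) at neither. A gene's highest −log10 q can therefore come from a different stretch at each amount: the strongest 100K peak overlapped the strongest peak of both lower amounts in 307 of the 685 kept genes (44.8%, 41.1 to 48.6%). Values of one gene at several amounts, here and below, are those of its strongest peak at each amount and need not describe one site.

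Where a stretch was found at all 3 amounts, the median enrichment was close to level and the pile-up was lower. Leaving the same-ended peaks aside, 909 such 100K peaks remained. Their median fold at the lower amount over that at 100K was 0.969 at 25K (quartiles 0.726 and 1.34) and 0.972 at 5K (0.662 and 1.39). The reads at the summit stood at a median of 0.793 of the 100K value at 25K and 0.755 at 5K, and the background at 0.876 and 0.814. Reads and background rest on the 787 peaks at 25K and 782 at 5K that could be solved, the other ratios on all 909. Peak length stood at 0.895 and 0.745 of the 100K length, and the summits lay a median of 5 bp (25K) and 9 bp (5K) from the 100K summit. The median ratio of −log10 q was 0.807 at 25K and 0.744 at 5K. Such a stretch had to reach a −log10 q of 10 in every list, so these ratios leave out stretches that fell below it. Of all 8052 peaks at 100K, 4737 (58.8%) met no peak at 25K or 5K.

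The 5 genes with the most 100K peaks were Dst, Macf1, Fn1, Hspg2 and Huwe1. Dst (dystonin, a linker of the cytoskeleton) had 63, 31 and 16 peaks as nuclei went from 100K to 5K. Its longest peak was 5530, 2509 and 421 bp. Its strongest 100K peak, at chr1:34364131-34365127, had 296 reads over a background of 28.8, its strongest at 25K 167 over 23.7 and its strongest at 5K 92 over 16.6. Macf1, a spectraplakin of the same family, had 57, 13 and 11 peaks and a highest −log10 q of 63.5, 22.2 and 39.4. Dst thus had fewer and shorter peaks at each lower amount, while Macf1 was lowest in −log10 q at 25K. Fn1 (fibronectin) had 33, 12 and 17 peaks, Hspg2 (the basement membrane proteoglycan perlecan) 29, 23 and 23, and Huwe1 (a ubiquitin ligase) 28, 5 and 10. Listed exonic length was 29734 bp in Dst and 27066 bp in Macf1, against a median of 2038 bp over all nameable genes.

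Some genes with clear 100K peaks had none at the lower amounts. Zfp638, which codes for a zinc finger RNA-binding protein, had 4 peaks at 100K, the strongest at chr6:83926193-83927424 with −log10 q of 70.0 and 72 reads over a background of 2.79. Its peak was 1232 bp long, above the median of the kept genes. Poglut1, an O-glucosyltransferase of Notch, had a 1444 bp peak with −log10 q of 53.1 and 88 reads over 8.46. Lmtk2, a membrane kinase, had 3 peaks, the longest 1008 bp, with a highest −log10 q of 51.2. Gspt1, the translation termination factor eRF3a, had 3 peaks up to 196 bp with a highest −log10 q of 52.3, and Lrpprc, a regulator of mitochondrial mRNA, 1 peak of 184 bp with 53.2. Rn45s, the ribosomal RNA precursor, had 1 peak of 217 bp with a fold of only 1.49 and a −log10 q of 5739. The call as lost rests on the named stretches: Ptpn12 (−log10 q 64.4) and 1110038B12Rik (71.8) had a 100K peak that a low-input peak overlapped outside the gene's listed exons. That was so for 11 of the 811 genes at 100K alone (1.36%). In the same way 5 of the 722 low-input genes (0.693%) had a peak that a 100K peak overlapped.

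The 2 groups lost at 1 lower amount differed in background. The strongest 100K peak of a gene lay over a median background of 4.65 reads in the genes shared with 25K alone and 8.37 reads in those shared with 5K alone, with a median fold of 7.48 and 5.21. Among the genes with a solved summit and no same-ended strongest peak, the lowest of 4 bins of background was found at 25K in 31.4% (27.5 to 35.6%) and at 5K in 27.6% (23.9 to 31.7%) of cases. The highest bin was found in 54.4% (50.0 to 58.7%) and 67.2% (63.0 to 71.2%). Median −log10 q also differed between those bins, at 15.1 and 25.0. The intervals of both amounts overlapped in the lowest bin and not in the highest, where more genes were found at 5K.

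Among the genes shared with 25K alone, Klf9, a Krüppel-like transcription factor, had a 2810 bp peak at 100K (chr19:23239161-23241970) with 126 reads over 6.51, and an 881 bp peak at 25K with 74 over 7.89. Zfp600, a zinc finger gene, had 134 reads over 2.48 at 100K and 45 over 2.23 at 25K, a −log10 q of 174 and 38.4. Hspa5, the endoplasmic reticulum chaperone BiP, had 5 peaks at 100K and 1 at 25K with a highest −log10 q of 117 and 25.8. All 3 had clearly lower −log10 q at 25K than at 100K. The genes named here were picked for a high 100K value, which favours a lower value at 25K. The lack of a 5K peak defines the group. Fam160a2 (546 and 76.3), Ywhah (107 and 16.5), Ubxn2a (81.0 and 25.1) and the overlapping pair Tspan2 and Tspan2os (91.4 and 23.1, from the same peak) showed the same order. Among the 8 shared with 5K alone that were picked in the same way, Slc7a5, an amino acid transporter, was the exception in having a higher −log10 q at 5K (167) than at 100K (68.5). Its 100K summit had 1286 reads over a background of 742. Ktn1, a kinesin-binding protein, had 23 peaks at 100K, none at 25K and 1 at 5K, with −log10 q of 66.9 and 11.9. Mib1, a ubiquitin ligase for Notch ligands, had 8 peaks at 100K, none at 25K and 3 at 5K, with 73.4 and 25.3.

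The genes at low input only had weaker and shorter peaks than the kept genes at the same amount. The median highest −log10 q at 5K was 15.1 in the 566 genes at 5K alone and 22.2 in kept genes, and the median longest peak was 175 and 228 bp. At 25K it was 12.1 in the 90 genes at 25K alone and 21.4 in kept genes, with 148 and 253 bp. Genes at 100K and 5K only stood closer to those at 5K alone than to kept genes, with 15.6 and 192 bp at 5K. Genes at 100K and 25K only had 14.5 and 231.5 bp at 25K. Peaks of 100 bp were 15.8% of the named peaks in genes at 5K alone, 12.7% in genes at 100K and 5K only and 8.27% in kept genes, all at 5K. Of the 722 genes, 156 had a −log10 q of at least 20 and 12 of at least 50.

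A few of them were strong. Tnk2, a nonreceptor tyrosine kinase, had 3 peaks at 5K, the strongest at chr16:32644081-32645142 with −log10 q of 466 and a fold of 18.4, and none at 100K or 25K. Obi1, a ubiquitin ligase of replication origins, had the same 326 bp peak at 25K and 5K (chr14:104921658-104921983), with −log10 q of 4223 and 2030. Pdzrn3, a ubiquitin ligase, had a 183 bp peak at 25K alone with 154 reads over 2.63 and −log10 q of 205. Others had a high background. Eef2, the translation elongation factor 2, had 3 peaks at 5K, the strongest with 844 reads over a background of 312 (fold 2.704, −log10 q 132). Eno1b, an enolase gene that is a near-identical copy of Eno1 and so may share its reads, had 745 reads over 329 (81.1), and Ybx1, an RNA-binding protein, 323 over 92.3 (73.1). Scrib, a cell polarity scaffold, had 3 peaks with a highest −log10 q of 91.3, and Maml1, a Notch coactivator, 1 with 63.1. Eef2 and Eno1b share a high pile-up and a fold under 3, whereas Tnk2 and Pdzrn3 stood far above their background.

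Naive pluripotency genes carried peaks more often than the average nameable gene at each amount. Of 27 that could be named, 18 had a peak at 100K, 13 at 25K and 15 at 5K, and 11 were kept, against 18.9%, 9.93%, 14.9% and 6.12% of all nameable genes. Their median highest −log10 q at 100K was 34.9 against 19.1 over all genes with a 100K peak, and their median listed exonic length 2975 bp against 2038 bp. Zfp57, a zinc finger protein that maintains imprints, had the highest value, −log10 q of 333, 149 and 133 in the order 100K, 25K, 5K, and peaks of 1113, 1041 and 701 bp that all overlapped at chr17:37146391-37147503. Rif1, a chromatin and replication timing factor, had 102, 50.2 and 46.3, and its longest peak was 3132, 1390 and 519 bp. Tfcp2l1, a transcription factor of the naive state, had 72.6, 19.6 and 32.2. Zfp42 (Rex1) had 94.3 at 100K, from chr8:44387712-44389850, and 49.6 at 25K and 103 at 5K from another stretch, chr8:44381124-44381389 at 25K and chr8:44381118-44381418 at 5K.

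The core factors did not step down evenly. Nanog had −log10 q of 27.8 at 100K, 17.2 at 25K and 125 at 5K. Its 5K value came from another stretch, chr6:122663205-122663434, with 1165 reads over a background of 521, while the 100K peak, chr6:122663930-122664222, had 156 over 51.4. Sox2 had 19.4, 13.9 and 28.6, with 560 reads over 356 at 100K, 520 over 346 at 25K and 303 over 139 at 5K. Its 5K peak, chr3:34549123-34549394, did not overlap the 100K peak, chr3:34550124-34550249. Both genes thus had their highest −log10 q at 5K, over high backgrounds. Klf4 had 63.2, 13.7 and 62.7, with 3, 1 and 2 peaks. Esrrb, an orphan nuclear receptor, had 38.8 at 100K, no peak at 25K and 13.9 at 5K. Pou5f1 (Oct4) had no named peak at any amount, but only 250 bp of its exons were listed, so a peak elsewhere on the gene would stay unnamed. Fgf4 and Lifr had peaks at 100K alone and Stat3 at 25K alone.

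**Figure D4:**
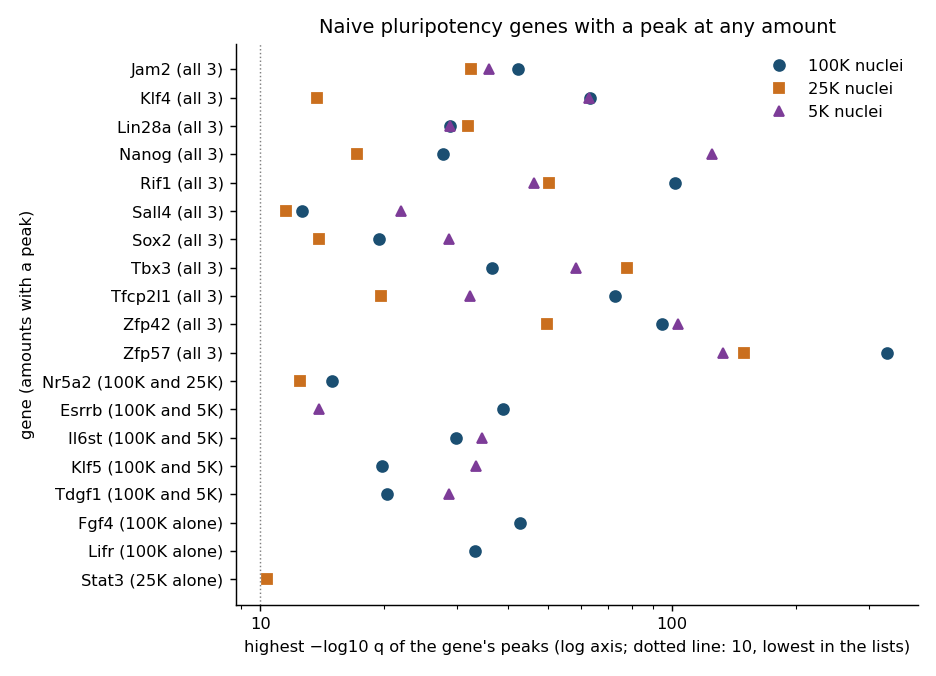
Highest −log10 q (horizontal log axis) at 100K (circles), 25K (squares) and 5K (triangles) for the 19 naive pluripotency genes with a peak at any amount; the dotted line is 10, where the lists begin. Zfp57, Rif1 and Tfcp2l1 are highest at 100K, while Nanog at 125 and Sox2 at 28.6 are highest at 5K.

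All 6 m6A writers with a peak at any amount had one at 100K, as did 2117 of the 2839 genes with an E14 peak. The same held for the 10 long noncoding RNAs, 9 ribosomal protein genes and 5 cadherins and planar polarity genes with a peak. Of 10 writers, 6 had a peak at 100K, 3 at 25K and 3 at 5K, and the 14 readers and erasers gave 7, 5 and 8. The shares over all nameable genes were 18.9%, 9.93% and 14.9%, and median listed length was 3535 bp in writers and 3881 bp in readers and erasers against 2038 bp. Rbm15, which guides the complex to RNA, had −log10 q of 36.8, 11.6 and 15.6, and Zc3h13, a nuclear anchor of the complex, 28.9, 16.4 and 20.3. Wtap, the regulatory subunit, had 716, 794 and 1308, its strongest peak being the same-ended stretch chr17:13184914-13185093, and without such peaks it was at 100K and 25K only. Cbll1 (Hakai), with 53 reads over 3.35 and −log10 q of 40.4 in an 836 bp peak, Mettl16 and Virma were at 100K alone. Prrc2a, an m6A reader, was kept with 60.7, 43.2 and 74.9, while Ythdf3 had 54.1 and 13.1 and Hnrnpa2b1 44.1 and 33.2 at 100K and 25K with none at 5K. Ythdc1, the nuclear reader, was at 100K alone (15.9). The eraser Alkbh5 and the readers Ythdf1, Igf2bp2 and Hnrnpc were at 5K alone.

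Of 9 genes that act on DNA methylation, 3 had a peak at 100K, 3 at 25K and 6 at 5K, and 3 had none at any amount. All nameable genes gave 18.9%, 9.93% and 14.9%, and the list's median listed length was 7450 bp against 2038 bp. The dioxygenases Tet1 and Tet2, which oxidise methylcytosine, were kept. Tet1 had −log10 q of 208, 53.7 and 19.5. The strongest peak was chr10:62267524-62276607 at 100K, with 341 reads over 33.5, and at 5K it was another stretch, chr10:62341102-62341541, with 146 over 55.7. The longest Tet1 peak was 9084 bp at 100K, 2201 at 25K and 1233 at 5K, and the summed length was 14745, 8774 and 2936 bp. Tet2 had 142, 139 and 37.3, so its value at 25K was close to that at 100K. Tet3 had 15.1 at 100K and 14.3 at 5K. The maintenance methyltransferase Dnmt1 had no 100K peak, 1 at 25K (13.7) and 3 at 5K (25.6), and Dnmt3b and Uhrf1 had a peak at 5K alone.

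Histone methyltransferases of the KMT2 and NSD families were recovered most widely of the 16 lists at each amount. All 13 had a peak somewhere, 11 at 100K, 9 at 25K and 12 at 5K, and 8 were kept, against 18.9%, 9.93%, 14.9% and 6.12% of all nameable genes. Their median listed exonic length was 9222 bp, against 2038 bp over all nameable genes. Nsd1, an H3K36 methyltransferase, had −log10 q of 83.4, 36.1 and 29.5. Kmt2d, an H3K4 methyltransferase of enhancers, had 66.0, 32.5 and 64.7, and Setd5 57.6, 27.4 and 58.3, each with its lowest value at 25K. Setd2 had 53.4 at 100K and 19.7 at 25K with no peak at 5K. Of 23 Polycomb genes, 9, 5 and 8 had a peak and 4 were kept, with a median listed length of 2893 bp. Mtf2, an accessory subunit of PRC2, had 104, 22.0 and 11.04. Its 5K peak, chr5:108537546-108537700, lay outside its strongest 100K peak, chr5:108535574-108537239. Suz12, a core subunit, had 33.3, 16.4 and 16.2, from a different stretch at each amount. Cbx7 had 33.9, 26.0 and 24.2, and Phc2 had 73.6 at 100K and 19.7 at 25K.

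Of 30 genes of SWI/SNF, CHD and bromodomain proteins, 22, 13 and 21 had a peak, beside 18.9%, 9.93% and 14.9% of all nameable genes, and median listed length was 6489 bp against 2038 bp. The list held 12 kept genes, 8 at 100K and 5K and none at 100K and 25K only. Arid1a, a SWI/SNF subunit, had −log10 q of 69.5, 38.0 and 40.5 with 5, 6 and 7 peaks, so it held more peaks at 5K than at 100K. Smarca5, the catalytic ISWI subunit, had 279, 326 and 414, and Ino80 88.6, 73.1 and 89.0. Smarca5 and Ino80 left the kept group when the same-ended peaks were set aside.

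Among 34 splicing factors 25, 17 and 18 had a peak and 11 were kept, where 18.9%, 9.93% and 14.9% of nameable genes had a peak and 6.12% were kept. Median listed length was 3037.5 bp in this list, 3061.5 bp in cell cycle genes and 10199.5 bp in cadherins and planar polarity genes, against 2038 bp. Srrm2, a scaffold of nuclear speckles, had −log10 q of 70.6, 29.0 and 33.7, and its longest peak was 3350 bp at 100K, 215 at 25K and 630 at 5K. Hnrnpu had 68.6, 30.3 and 25.5, Ddx17 56.7, 19.8 and 109, and Srsf6 56.3 at 100K and 49.5 at 5K. Cell cycle genes gave 11, 7 and 10 of 28, with Mki67 (Ki-67) at 72.5, 35.5 and 12.6 and its longest peak at 6805, 765 and 513 bp. Cenpe had 41.8, 13.6 and 21.2 and Cenpf 40.4 at 100K and 28.9 at 5K, while Ccne2 was kept through a same-ended peak alone. Of 8 cadherins and planar polarity genes, 5, 3 and 3 had a peak: Fat1 had 144, 41.9 and 31.7, Cdh1 (E-cadherin) 139, 47.0 and 37.7, and Celsr3 18.7 at 100K alone.

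Long noncoding RNAs were found in 10, 6 and 6 of 12 cases, with 5 kept, against 18.9%, 9.93%, 14.9% and 6.12% of all nameable genes. Their median listed length, 1532.5 bp, was below the 2038 bp of all nameable genes. Malat1, a nuclear speckle RNA, was covered by a peak of 6375 bp at 100K and 6385 bp at 25K. At 5K it held 4 peaks of up to 2042 bp, and −log10 q was 448, 249 and 212. Rian, a maternally expressed RNA of an imprinted cluster, had 213, 103 and 30.3, and Tug1 123, 60.9 and 18.1, the latter with 109 reads over 2.98 at 100K, 65 over 2.72 at 25K and 39 over 4.99 at 5K. For all 3, −log10 q was lower at each lower amount; the strongest 25K peak of Rian lay on another stretch than that at 100K. The snoRNA hosts Gas5, Snhg1 and Snhg3 were at 100K alone, and Snhg5 had 53.5 at 100K and 23.5 at 25K.

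Ribosomal protein transcripts were near the average at 100K and sparse below. Of 52 cytosolic ribosomal protein genes 9 (17.3%) had a peak at 100K, 1 at 25K (1.92%) and 3 at 5K (5.77%), against 18.9%, 9.93% and 14.9% of all nameable genes, and the median listed exonic length was 399 bp. Rpl3 was kept with −log10 q of 38.7, 15.9 and 22.0, Rpl10a (45.8 and 10.5) and Rps24 (30.4 and 29.3) were at 100K and 5K, and 6 others, Rps15a among them, were at 100K alone. Such genes have many processed copies in the genome, so reads on them may be shared out between copies. Their median −log10 q at 100K was 12.5, against 19.1 over all genes. Of 26 genes of the mitochondrial respiratory chain, with a median listed length of 262 bp, 1 had a peak, Ndufs1, a complex I subunit, at 5K with 35 reads over 4.99.

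Markers of the labelled cell type carried peaks. Of 9 embryonic stem cell markers 7, 5 and 7 had a peak at 100K, 25K and 5K, against 18.9%, 9.93% and 14.9% of all nameable genes. Of 5 nameable trophectoderm and primitive endoderm markers and 1 fibroblast marker none had one at any amount, but the naming stretches come from stem cells and cover such genes thinly. In wider lists, Fn1 was the single member with a peak among 11 fibroblast and matrix genes. Lamc1 (−log10 q of 120, 46.7 and 29.8), Lama1 (51.5 at 100K and 26.7 at 5K) and Eomes (12.1 at 5K) were the 3 among 12 trophectoderm and primitive endoderm genes. Nes, at 12.4, 22.6 and 20.6, and Eomes were the 2 among 10 primed and germ layer genes. The share with a peak was 9.09% at each amount in the fibroblast and matrix list. It was 16.7%, 8.33% and 25% in the trophectoderm and primitive endoderm list, and 10%, 10% and 20% in the primed list. Median listed length was 600, 2106.5 and 2705.5 bp in these lists, against 2038 bp over all nameable genes.

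Peaks of other cells in the series played no part in sorting the E14 genes. A peak in expanded potential stem cells (EPSC, derived from E14) was found in 94.9% (93.0 to 96.3%) of kept genes, 90.0% of those shared with 25K, 84.6% of those shared with 5K and 77.8% (74.8 to 80.5%) of those at 100K alone. It was found in 61.1% (50.8 to 70.5%) of the genes at 25K alone, 41.5% (37.5 to 45.6%) of those at 5K alone and 10.6% of the genes with no E14 peak. Of the 87 genes that left the kept group without same-ended peaks, 93.1% had an EPSC peak, against 95.2% of the 598 that stayed. In mouse embryonic fibroblasts the spread was narrower and kept genes were not first, at 83.9% of kept genes, 79.6% of those shared with 25K, 85.5% of those shared with 5K, 74.6% at 100K alone and 66.6% at 5K alone. At the level of peaks, 78.2% of the 100K peaks in kept genes met an EPSC peak, 56.9% of those in genes at 100K alone, 35.6% of the 25K peaks in genes at 25K alone and 21.9% of the 5K peaks in genes at 5K alone. The gene-level interval at 100K alone lay above those at 25K alone and 5K alone and overlapped that of the 66 genes at both, 72.7% (61.0 to 82.0%).

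In C57BL/6 wild-type stem cells, assayed with another antibody, the median of a gene's highest MeTPeak fold was 16.7 in kept genes, 15.9 and 12.3 in those shared with 25K and with 5K, 10.2 at 100K alone, 7.0 at 25K alone, 6.65 at 5K alone and 5.33 in genes with no E14 peak. The quartiles were wide, 9.33 to 27.7 in kept genes and 6.80 to 15.6 at 100K alone. Only genes with a wild-type MeTPeak peak have a fold. These were 614 of the 685 kept genes, 755 of the 811 at 100K alone and 472 of the 566 at 5K alone. Of the 8354 genes with no E14 peak they were 3275 (39.2%), so that median does not describe most of that group. The stretches of these cells also name the E14 peaks, so presence in their lists is not independent. The fold was not used to name them. Input signal moved with the groups too. The input, ratio and log2 change given here are those of 1 exomePeak2 region per gene, the region with the highest summed RPM. That region need not be the E14 peak. Its RPM is not scaled to length and is not the abundance of the whole transcript. The median wild-type input was 7.85 RPM (reads scaled to the library total) in kept genes, 4.04 in those shared with 25K, 6.94 in those shared with 5K, 3.64 at 100K alone, 4.44 at 5K alone and 0.954 in genes with no E14 peak. The ratio of m6A-CT to input was highest in the genes shared with 25K alone, at a median of 7.71, against 5.95 in kept genes, 4.99 in those shared with 5K, 5.59 at 100K alone and 3.20 at 5K alone. In genes with no E14 peak the median ratio was 2.96 (quartiles 1.56 and 5.33), close to that at 5K alone (quartiles 2.09 and 4.91). The authors' log2 change in Mettl3 KO differed little among the groups, with medians from −1.07 to −1.21, and was −1.42 in genes with no E14 peak. Genes shared with 5K and genes at 5K alone thus had a higher input and a lower ratio than their counterparts at 25K and at 100K alone; the part of the input level in the recovery was not tested.

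**Figure D5:**
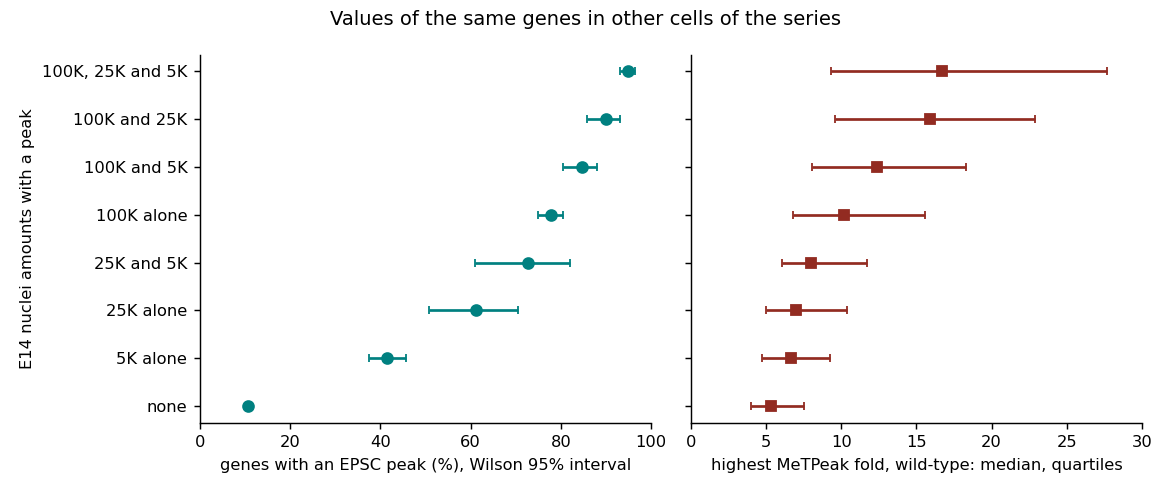
Share of genes with an EPSC peak (left, %, with Wilson 95% intervals) and highest MeTPeak fold in C57BL/6 wild-type cells (right, median and quartiles) by the E14 amounts at which the gene had a peak (vertical axis). The share runs from 94.9% in kept genes to 41.5% at 5K alone and the median fold from 16.7 to 6.65. The fold covers only genes with a wild-type MeTPeak peak.

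The place of peaks along the listed exons had a median between 47.3% and 64.6% over the groups and amounts. This position, from the start of the listed exonic stretch to its end in the direction of transcription, was 49.1% for 100K peaks in kept genes, 51.6% in genes at 100K alone and 55.6% for 5K peaks in genes at 5K alone. The last 25% of the stretch held 22.3%, 21.9% and 26.8% of those peaks. The highest medians were in small groups: 64.6% for the 92 peaks of genes at 25K alone and 61.8% for the 69 peaks at 25K of genes at 25K and 5K, of which 29.3% and 34.8% lay in that last part.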

How the data were processed

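Bulk m6A-CT peak lists of E14 at 100K, 25K and 5K nuclei were analysed. The tools named by the submitters' processing notes are Trim Galore for trimming, STAR 2.7.2 with mm9 for alignment and MACS2 for the peaks. The settings and the pooling of replicates are not given in the sources used here. In these deposited lists the score is 10 times −log10 q, the fold is a ratio at the summit, and −log10 p and −log10 q are the caller's. The deposited summit offset is a position and no measurement. The deposited MeTPeak lists give a p-value as score, log10 values and a fold, and the authors' exomePeak2 table gives RPM, a log2 change and p-values.

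Peaks were named where they met, by at least 1 bp, an exonic stretch of the 2 MeTPeak lists or the exomePeak2 table. Reads at the summit were solved from fold and −log10 p up to a −log10 p of 280, as (reads + 1) over (background + 1) with a Poisson tail. Reads carried no molecular identifiers, so PCR copies were counted and intervals cover counting error alone. Solving and naming were tested on simulated data. Named genes are the 8 with the highest −log10 q at 100K in each pattern with a 100K peak, 6 in each low-input pattern, 5 with the most 100K peaks, up to 4 per list and 7 fixed by name (Nanog, Pou5f1, Sox2, Klf4, Esrrb, Tet1 and Tug1); for kept genes 8 were added without same-ended peaks, after the values were seen. Genes named without values complete a count. A gene that the rule selects is not reported here. The members and the 16 gene lists were chosen with earlier results of these data known. A RefSeq table of a later build was used for synonyms alone. No sequence is shown, as no mm9 genome was used here. Python 3.11.15, numpy 2.4.6, scipy 1.17.1, pandas 2.3.3 and matplotlib 3.10.9 were used. Alternatives varied the threshold, list length, overlap, naming source and peak classes.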

Additional observations from a re-analysis of the deposited data

How the results depend on the processing

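No paired analysis was possible because the files hold 1 list per amount and no values per replicate, and for the same reason no replicate could be left out. The share of 100K genes kept at all amounts, 32.4%, was 24.9% with a −log10 q of at least 20 in all lists, 34.9% with at least 50, 45.5% with lists of equal length (3923 peaks each), 29.6% with MeTPeak stretches only, 30.1% without peaks of 100 bp and 29.2% without the same-ended peaks. The share at 100K alone, 38.3%, was 49.7%, 48.8% and 24.5% under the first 3 of these and 41.2% without peaks of 100 bp. Genes at low input only numbered 722 at first, 336 and 50 under the thresholds of 20 and 50, and 1029 with lists of equal length. Of the 722 themselves, 156 had a −log10 q of at least 20 and 12 of at least 50. The other genes counted at those thresholds had 100K peaks that all fell under the cut. The kept over 100K-alone ratio of median −log10 q was 2.36 and stayed above 1 under every alternative run, reaching 6.85 at the threshold of 50. The ratio of median longest peaks, 1.87, turned to 0.727 and 0.183 at the thresholds of 20 and 50. Of all 100K peaks, 34.2% were found again at 25K and 28.4% at 5K; these shares were 41.0% and 33.6% at a threshold of 20, 61.3% and 52.8% at 50, 55.4% and 41.1% with equal lists, 29.8% and 24.3% without 100 bp peaks, 26.8% and 20.3% without same-ended peaks, and 27.7% and 21.9% where 50% of the 100K peak had to be overlapped. Leaving out same-ended peaks was chosen after seeing the data, as was doing so together with a threshold. At 20 without them the kept share was 18.8%, the share at 100K alone 53.8%, the low-input genes 331 and the length ratio 1.45. At 50 without them these were 18.3% (40 of 219 genes), 63.5%, 39 and 0.481, and the −log10 q ratio was 6.14. The cause of these shifts was not tested, except that a higher threshold leaves fewer peaks and genes. Equal length likewise cut the 100K and 5K lists to the 3923 peaks of the 25K list. A gene whose 100K peaks were all cut could then count as low input only. The other alternatives gave values within the interval of the first or within 1.5 times it. At these depths a stretch with under 21 reads at its summit was not listed at any amount.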

Other observations

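Peaks that met no named exonic stretch were left out of the comparisons above. They were 2746 of 8052 peaks at 100K, 2057 of 3923 at 25K and 2126 of 4644 at 5K. Peaks of exactly 100 bp were 23.6%, 34.1% and 35.1% of them, against 2.85%, 7.18% and 11.2% of the named peaks. Their median −log10 q was 23.5, 29.0 and 24.5, against 16.6, 15.6 and 16.0 for the named ones. The strongest unnamed peak was the same 627 bp stretch at every amount, chr16:57391226-57391852 (mm9), with a fold of 114 at 100K, 135 at 25K and 135 at 5K. The next, at chr5:147072535-147072973 in the 100K list, had a fold of 23.4, 36.0 and 49.6. At both stretches the fold was lower at 100K than at 5K.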
